A study of Homo sapiens with 32 samples.

Results

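The genes described here carry out and regulate glycolysis, or belong to the cellular response to low oxygen. They are glucose transporters, glycolysis enzymes, the enzymes and carriers that decide the fate of pyruvate and lactate, the HIF transcription factors with their prolyl hydroxylases, targets of the hypoxia response, and the glucose-sensing arrestins TXNIP and ARRDC4. The 42 genes were listed by name, not by a rule on measured values, but with earlier results of these data known. Their called shares may therefore not be independent of the data. Of the 42, 41 matched a row of the count table of 48804 genes by their Ensembl gene identifier. TXNIP was not analysed here. All 41 passed the filter on low counts at both time points.

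The cells were MDA-MB-468, an established triple-negative breast cancer cell line, so every group came from 1 line. No genotype was set to differ between groups, and genotypes were not measured here. Cultures received PBS (control), 0.5 μM salinomycin (Sal), 15 μM dasatinib (Das) or both drugs together (S+D, 15.5 μM in total) for 24 h or 72 h. Salinomycin is a polyether ionophore that carries potassium ions across membranes, and dasatinib is an inhibitor of SRC family and ABL kinases. Each of the 8 conditions had 4 RNA-seq libraries, 32 in all, and the comparison asks how each drug and the pair change gene expression. The labels give no oxygen level for any group. The study's methods call the 4 libraries of a condition biological replicates and describe the experiments as independent, while the labels tie no library to a culture or day. In such bulk libraries, fewer cells expressing a gene and less of its RNA per cell cannot be told apart.

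Glycolysis splits glucose into pyruvate, and lactate dehydrogenase then turns pyruvate into lactate, which leaves the cell through monocarboxylate transporters. Pyruvate dehydrogenase kinases hold pyruvate out of the mitochondria. When oxygen is plentiful, prolyl hydroxylases mark the HIF alpha subunits for destruction. When it is scarce, HIF accumulates and activates genes of glycolysis, pH control, blood vessel growth and mitochondrial turnover through the core motif ACGTG or GCGTG. A separate sensor, MondoA (MLXIP) with its partner MLX, responds to glucose metabolites and activates TXNIP and ARRDC4. Breast cancer cells of the basal type are known for high glycolysis even with oxygen present.

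Promoter sequences were read from RefSeq (build GRCh38.p14, whereas the counts were made on GRCh37), as windows from 250 bases before to 50 bases after each gene start, 300 bases in all. An entry existed for 37 of the 42 genes, TXNIP included. The motif ACGTG or GCGTG, on either strand, stood in 28 of the 37 windows (75.7%), and in 48.4% of all 35116 windows of the table. The hexamer CACGTG, which contains ACGTG, stood in 6 of the 37 (16.2%) and in 7.26% of all windows. Split by their call with Sal at 72 h, 5 of 6 windows of genes that were higher, 8 of 12 of genes that were lower and 14 of 18 of genes not called held ACGTG or GCGTG. These matches describe letters in a window and not bound sites. The 250 bases before the start follow for LDHA and CA9, which were lower with all 3 treatments at 72 h, and for BNIP3 and ARRDC4, which were higher with Sal and with S+D, so that the motifs of genes that moved in opposite directions can be seen. Each is written 5′ to 3′ on the strand of its gene, and capitals mark every copy of these motifs on either strand. On the other strand ACGTG reads as CACGT, while GCGTG reads as CACGC.
LDHA, chr11:18394313-18394562, plus strand: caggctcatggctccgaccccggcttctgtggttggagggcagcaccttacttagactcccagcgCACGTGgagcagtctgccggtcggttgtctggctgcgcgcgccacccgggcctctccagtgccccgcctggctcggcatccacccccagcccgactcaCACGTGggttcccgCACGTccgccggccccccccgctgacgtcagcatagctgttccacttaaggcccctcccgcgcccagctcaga
CA9, chr9:35673678-35673927, plus strand: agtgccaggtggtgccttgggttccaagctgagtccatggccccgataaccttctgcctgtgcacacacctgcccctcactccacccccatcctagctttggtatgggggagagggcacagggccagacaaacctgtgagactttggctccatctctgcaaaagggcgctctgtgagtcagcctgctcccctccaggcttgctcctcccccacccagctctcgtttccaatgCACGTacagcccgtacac
BNIP3, chr10:131981924-131982173, minus strand: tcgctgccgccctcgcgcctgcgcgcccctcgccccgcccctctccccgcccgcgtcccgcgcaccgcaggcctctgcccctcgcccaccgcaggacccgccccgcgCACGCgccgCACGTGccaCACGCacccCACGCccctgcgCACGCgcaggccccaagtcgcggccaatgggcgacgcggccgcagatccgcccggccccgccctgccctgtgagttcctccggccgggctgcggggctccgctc
ARRDC4, chr15:97960453-97960702, plus strand: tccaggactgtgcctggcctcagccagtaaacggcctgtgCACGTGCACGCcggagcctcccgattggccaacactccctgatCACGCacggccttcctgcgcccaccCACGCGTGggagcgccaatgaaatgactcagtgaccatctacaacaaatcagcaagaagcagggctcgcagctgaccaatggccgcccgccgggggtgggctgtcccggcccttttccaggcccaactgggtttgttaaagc

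Total counts ran from 25692561 to 42769687 per library, and values are given as CPM, counts scaled to a common library size with TMM factors. The line's epithelial markers were present in every library: EGFR at 2792 to 5920 CPM, EPCAM at 206 to 393 and CDH1 at 195 to 361. The basal keratins KRT5 (27.95 to 915) and KRT14 (0.142 to 22.8) varied widely, and KRT6A ran from 0 to 2.1 CPM. ESR1 stood at 3.64 to 11.97 CPM and PGR at up to 0.0894. Among markers of other cell types, PTPRC, COL3A1 and ALB reached at most 0.132, 0.0754 and 0.778 CPM, while COL1A1 stood at 18.2 to 120.

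In each condition 3 libraries carry a replicate number in the labels and 1 carries none. The library without a number stood apart for many of the genes, and for 16 of the 41 it did so in the same direction in all 8 conditions. It was above every numbered library in 8 of 8 conditions for 14 genes: SLC2A1, HK2, GPI, PFKL, TPI1, PFKFB3, PGK1, ENO1, ENO2, SLC16A3, EGLN3, CA9, ADM and ANGPTL4. It was below every numbered library in 8 of 8 conditions for PGAM1 and HIF1A. For other genes the direction varied, as for BNIP3L, where it was above the numbered libraries in 4 conditions and below them in 4. The median difference from the mean of the numbered libraries, on the log2 scale, was 2.08 for CA9, 2.05 for ANGPTL4 and 1.84 for SLC2A3, and -0.976 for PGAM1 and -0.947 for HIF1A. The part of these libraries in the results was not tested as a cause. Counts of called genes among the 41 are therefore given over all 4 libraries and again over the 3 numbered libraries. For single genes, values over the numbered libraries are given for some only. A gene with no call over all libraries can still be called over the numbered libraries. In lists of 4 values the library without a number comes last.

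**Figure D1:**
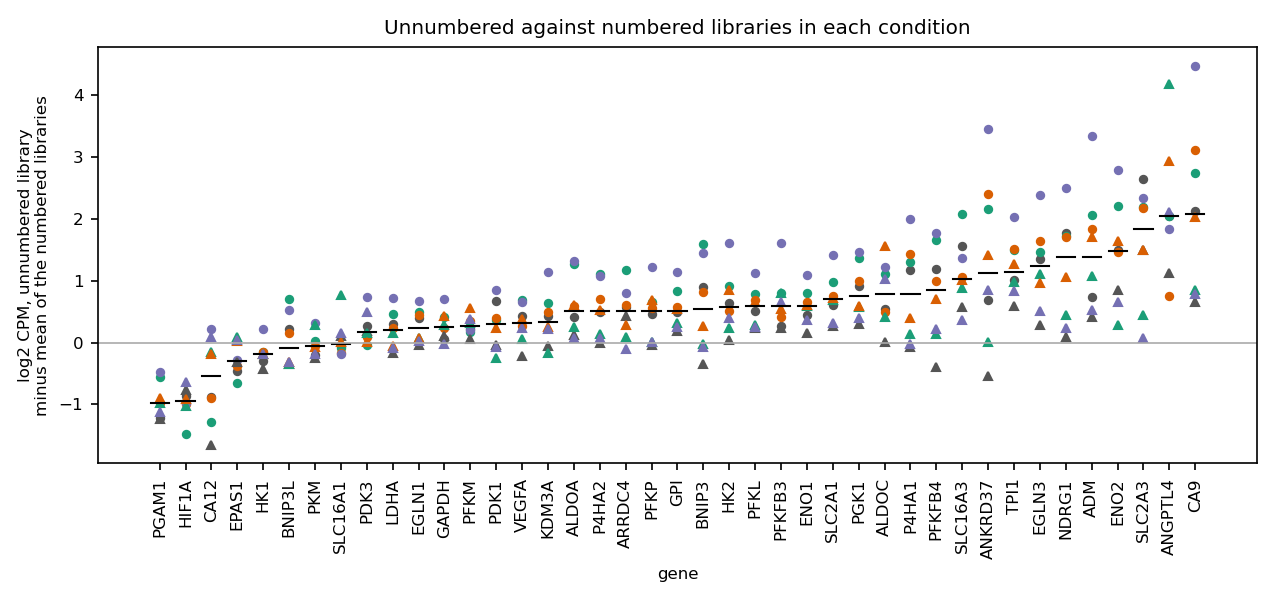
Difference in log2 CPM between the unnumbered library and the mean of the numbered libraries (y axis) for each gene (x axis, ordered by the median over the 8 conditions, black bar). Circles are 24 h and triangles 72 h, coloured by treatment (grey control, green Sal, orange Das, purple S+D). CA9 and ANGPTL4 lie at the top with medians of 2.08 and 2.05, PGAM1 and HIF1A at the bottom with -0.976 and -0.947.

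The word called is used for an edgeR quasi-likelihood result with an adjusted p under 0.01, where the adjustment runs over all genes tested. Unless a comparison over time is named, fell and rose mean lower or higher than the control of the same time point. At 24 h few of the genes were called over all 4 libraries, a smaller share than among all genes in each of the 3 comparisons with control, whereas over the numbered libraries the share was the larger one. Under Sal 1 of the 41 genes was lower and none higher, where the called share was 6.78% of all genes, 4.55% higher and 2.23% lower. Under Das 3 were lower and none higher (13.9% of all genes, 6.99% higher and 6.88% lower). Under S+D 2 were higher and 4 lower (33.6% of all genes, 17.1% higher and 16.5% lower). LDHA, PKM and HK1 were lower with Das and with S+D, SLC16A1 was lower with Sal and with S+D, and VEGFA and ARRDC4 were higher with S+D. With the numbered libraries alone, the counts were larger, with 11 higher and 7 lower for Sal (43.9% of the 41, against 23.5% of all genes), 5 and 17 for Das (53.7% against 39.3%) and 12 and 23 for S+D (85.4% against 58.1%). The 1 call with Sal, SLC16A1, was lost without any of the 4 control libraries, Sal replicate 3 or the unnumbered Sal library, and the count with S+D rose to 11 without its unnumbered library.

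After 72 h of Sal, 8 of the 41 genes were higher and 13 lower, or 51.2% of them (53.2% of all genes, 26.3% higher and 26.8% lower). After Das, 1 was higher and 12 lower, or 31.7% (19.9% of all genes, 10.5% higher and 9.36% lower). After S+D, 10 were higher and 14 lower, or 58.5% (54.9% of all genes, 27% higher and 27.9% lower). For Sal and S+D the shares lie near those of all genes, and for Das the share lies above that of all genes. Median log2 changes of the 41 genes were -0.33 (Sal), -0.41 (Das) and -0.25 (S+D), beside medians over all genes tested of 0.0042, 0.022 and 0.012. In the fit of numbered libraries the counts at 72 h were 9 higher and 19 lower for Sal (57.3% of all genes), 1 and 25 for Das (22.6%) and 9 and 17 for S+D (57.8%). The count for Das fell to 8 without control replicate 3, without Das replicate 1 or without Das replicate 2, and rose to 23 without the unnumbered Das library.

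Called genes fell into groups by treatment at 72 h. All 3 treatments lowered SLC2A3, HK1, GAPDH, ENO1, PKM, LDHA, EGLN3 and CA9, and ARRDC4 was higher with all 3. HK2, ALDOA, SLC16A1, BNIP3, BNIP3L, P4HA2 and KDM3A were higher with Sal and with S+D and not called with Das. Of the Das libraries at 72 h, replicate 3 was the lowest for HK2, ALDOA, BNIP3, P4HA2 and KDM3A, but not for SLC16A1 or BNIP3L. Without it P4HA2 was called higher with Das. The part of this library in the pattern was not tested as a cause. PFKM, HIF1A and EPAS1 were lower with Sal and with S+D and not called with Das. Another 14 genes were called in none of these comparisons: SLC2A1, GPI, PFKL, ALDOC, TPI1, PFKFB4, PGAM1, SLC16A3, EGLN1, ADM, ANKRD37, NDRG1, P4HA1 and ANGPTL4. The 3 comparisons of a time point share the same 4 control libraries.

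**Figure D2:**
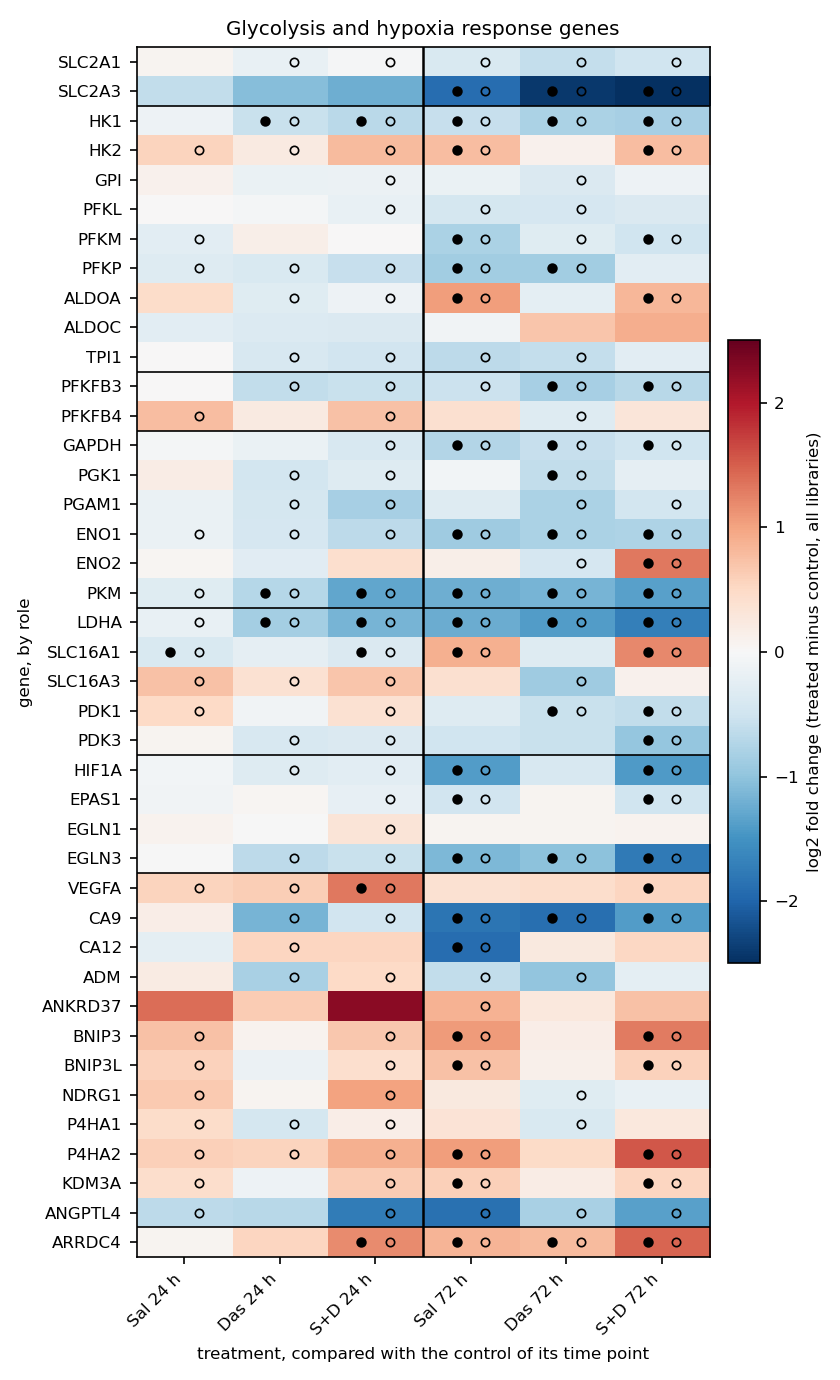
Log2 fold change against the control of the same time point (colour, red higher and blue lower) for the 41 genes in rows, grouped by role, and the 6 comparisons in columns. Filled dots mark genes called over all 4 libraries and open rings genes called over the 3 numbered libraries, and at 72 h 21, 13 and 24 genes carry a filled dot with Sal, Das and S+D.

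Of the glucose transporters, 1 of 2 was lower in each treatment at 72 h. The lowered share of all genes tested was 26.8% under Sal, 9.36% under Das and 27.9% under S+D. SLC2A3 (GLUT3, a high-affinity transporter) was a rare transcript in these cells. At 72 h SLC2A3 stood at 2.18, 2.96, 2.08 and 6.81 CPM in control, 0.945, 0.996, 0.638 and 1.17 in Sal, 0.746, 0.214, 0.373 and 1.25 in Das and 0.384, 0.366, 0.447 and 0.421 in S+D libraries. Every treated library lay below every control library. Raw counts behind these values were as low as 6 in a Das library and 12 to 15 in S+D libraries, so counting error is large here. Log2 changes came to -1.91 ± 0.43 (SE) for Sal, -2.41 ± 0.44 for Das and -3.12 ± 0.46 for S+D, at edgeR adjusted p of 8.13e-04, 5.62e-04 and 1.43e-05, and over the numbered libraries they were -1.504, -2.42 and -2.61 (adjusted p of 7.02e-04, 1.65e-04 and 1.36e-05). At 24 h SLC2A3 stood at 0.514, 0.329, 0.408 and 2.61 CPM in control, 0.265, 0.451, 0.312 and 1.57 in Sal, 0.173, 0.308, 0.226 and 1.06 in Das and 0.241, 0.1597, 0.209 and 1.02 in S+D libraries, and no comparison was called. Per kb of exon, SLC2A3 made up 0.941% ± 0.485 (SD, n = 4) of the SLC2A1 and SLC2A3 total in control cells at 72 h and 0.159% ± 0.0220 with S+D.

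SLC2A1 (GLUT1, the basal glucose transporter) was the abundant one. At 72 h SLC2A1 stood at 301, 304, 323 and 372 CPM in control, 227, 222, 206 and 353 in Sal, 185, 186, 184 and 304 in Das and 228, 219.8, 214 and 276 in S+D libraries. The numbered libraries of all 3 treatments lay below those of the control, while the unnumbered Sal and Das libraries lay within the control range. The log2 changes over all libraries were -0.38 ± 0.18 (SE) for Sal, -0.604 ± 0.18 for Das and -0.49 ± 0.18 for S+D, at edgeR adjusted p of 0.074, 0.0169 and 0.0256, so no call was made. Over the numbered libraries SLC2A1 fell with all 3 treatments, with log2 changes of -0.52, -0.75 and -0.51 (adjusted p of 1.19e-04, 3.69e-05 and 1.45e-04). The change with Sal was also called without the unnumbered Sal library, and that with Das without the unnumbered Das library. At 24 h SLC2A1 stood at 202, 214, 221 and 325 CPM in control, 209.7, 190, 218 and 404 in Sal, 176, 176, 179 and 299.7 in Das and 156, 172, 159.6 and 434 in S+D libraries, and no change was called over all libraries.

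Of the 9 enzymes from hexokinase to triose phosphate isomerase, Sal at 72 h had 2 higher and 3 lower, Das 2 lower, and S+D 2 on each side. All genes were also called in both directions, with 26.3% higher and 26.8% lower for Sal. For Das these shares of all genes were 10.5% and 9.36%, and for S+D 27% and 27.9%. The hexokinases, which trap glucose in the cell as glucose 6-phosphate, went opposite ways. HK1, the ubiquitous form (GRCh37 chromosome 10, 71029740 to 71161640, plus strand), fell. At 72 h HK1 stood at 381, 377, 420.2 and 293 CPM in control, 290.3, 236, 245 and 225 in Sal, 199, 208, 256 and 193 in Das and 214, 217, 216 and 190.3 in S+D libraries, and no treated library reached the control range. These were log2 changes of -0.58 ± 0.13 (SE) for Sal, -0.79 ± 0.13 for Das and -0.83 ± 0.13 for S+D, at edgeR adjusted p of 6.40e-04, 1.91e-04 and 1.88e-05. Already at 24 h HK1 stood at 333, 344, 356 and 279 CPM in control, 321, 278, 326 and 278 in Sal, 232, 232, 216 and 203 in Das and 183, 200, 194 and 223 in S+D libraries. The change at 24 h was called with Das (-0.55 ± 0.095 (SE), adjusted p = 4.99e-04) and with S+D (-0.68 ± 0.096 (SE), adjusted p = 2.88e-05).

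HK2, the inducible hexokinase of tumours and muscle (GRCh37 chromosome 2, 75061254 to 75120486, plus strand), rose with Sal and with S+D. At 72 h HK2 stood at 184, 176, 176 and 184 CPM in control, 309.6, 301, 289 and 352 in Sal, 188, 189, 107 and 292 in Das and 260.4, 312, 292 and 381 in S+D libraries. The Sal and S+D libraries all lay above the control libraries, whereas Das replicate 3 lay below them and the unnumbered Das library far above. On the log2 scale the changes were 0.78 ± 0.202 (SE) for Sal, 0.101 ± 0.201 for Das and 0.77 ± 0.202 for S+D, at edgeR adjusted p of 0.00274, 0.731 and 0.00277, and over the numbered libraries they were 0.72, -0.15 and 0.67 (adjusted p of 0.00156, 0.49 and 0.00273). At 24 h HK2 stood at 92.9, 99.2, 103 and 152 CPM in control, 134, 132, 141 and 254 in Sal, 116, 122, 111 and 165 in Das and 126, 132, 120.1 and 382 in S+D libraries, with no call over all libraries. Per kb of exon, HK2 made up 36.5% ± 4.04 (SD, n = 4) of the HK1 and HK2 total in control cells at 72 h, against 59.3% ± 3.87 for Sal, 50.1% ± 12.8 for Das and 63.1% ± 4.86 for S+D.

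Among the phosphofructokinases, which commit sugar to glycolysis, PFKP (GRCh37 chromosome 10, 3108525 to 3179910, plus strand), the platelet form, fell with either single drug. At 72 h PFKP stood at 242, 247, 289 and 253 CPM in control, 171, 135, 122 and 144 in Sal, 120, 119.5, 129 and 198 in Das and 221, 217, 217 and 219 in S+D libraries. Sal, Das and S+D libraries all lay below the control libraries, the S+D libraries closest to them. Fitted log2 changes were -0.87 ± 0.15 (SE) for Sal, -0.87 ± 0.15 for Das and -0.26 ± 0.15 for S+D, at edgeR adjusted p of 6.32e-05, 2.99e-04 and 0.131. At 24 h PFKP stood at 168, 184, 184 and 247 CPM in control, 149.8, 122, 144 and 218 in Sal, 136, 140.2, 121 and 196 in Das and 92.02, 101, 95.5 and 224 in S+D libraries, with no call over all libraries. PFKM, the muscle form, fell with Sal (-0.79 ± 0.15 (SE), adjusted p = 2.25e-04) and with S+D (-0.501 ± 0.15 (SE), adjusted p = 0.00777), the latter called in 2 of the 8 fits that left out 1 library. PFKL, the liver form, was not called.

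ALDOA, the aldolase that splits fructose 1,6-bisphosphate (GRCh37 chromosome 16, 30075485 to 30081778, plus strand), rose with Sal and with S+D. At 72 h ALDOA stood at 1445, 1457, 1634 and 1648 CPM in control, 3603, 2925, 2714 and 3687 in Sal, 1377, 1240, 888 and 1777 in Das and 2993, 2615, 2602 and 2872 in S+D libraries. Sal and S+D libraries were all above the control libraries, and Das libraries spread over both sides of them. The fit gave log2 changes of 1.05 ± 0.17 (SE) for Sal, -0.24 ± 0.16 for Das and 0.82 ± 0.16 for S+D, at edgeR adjusted p of 2.83e-05, 0.282 and 2.74e-04, and over the numbered libraries they were 1.005, -0.38 and 0.83 (adjusted p of 7.20e-05, 0.0703 and 3.34e-04). At 24 h ALDOA stood at 1049, 1140, 1172 and 1495 CPM in control, 1302, 1063, 1373 and 2990 in Sal, 899, 856, 834 and 1303 in Das and 786, 815, 789 and 1984 in S+D libraries, with no call over all libraries. ALDOC, a brain aldolase, was the rarest, at 0.1004 to 1.34 CPM over the 32 libraries, and was not called.

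The bifunctional enzymes that set fructose 2,6-bisphosphate, an activator of phosphofructokinase, gave 1 lower gene of 2 with Das and with S+D (9.36% and 27.9% of all genes lower). PFKFB3 is the form with high kinase activity. At 72 h PFKFB3 stood at 96.6, 107, 104 and 121 CPM in control, 66.1, 62.6, 59.5 and 109 in Sal, 43.1, 48.97, 70.2 and 78.4 in Das and 54.6, 62.1, 58.4 and 92.2 in S+D libraries, and Das and S+D libraries lay below the control libraries. The log2 changes were -0.54 ± 0.22 (SE) for Sal, -0.84 ± 0.22 for Das and -0.698 ± 0.22 for S+D, at edgeR adjusted p of 0.0373, 0.00738 and 0.00968. The calls with Das and S+D were held in 2 and 1 of the 8 fits that left out 1 library. With the numbered libraries alone, PFKFB3 fell with all 3 treatments, with log2 changes of -0.73, -0.93 and -0.83 (adjusted p of 6.04e-04, 4.80e-04 and 2.04e-04). At 24 h PFKFB3 stood at 59.5, 65.7, 69.5 and 77.8 CPM in control, 56.4, 57.1, 61.02 and 102 in Sal, 37.8, 43.6, 40.9 and 54.3 in Das and 28.6, 32.1, 28.96 and 91.3 in S+D libraries, with no call over all libraries. PFKFB4 was not called at 72 h, with 0.398 ± 0.16 (SE), adjusted p = 0.0405 for Sal.

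Of the 6 enzymes from GAPDH to pyruvate kinase, Sal lowered 3, Das 4 and S+D 3 at 72 h, and S+D raised 1. Of all genes, 26.8%, 9.36% and 27.9% were lower, and 27% were higher with S+D. PKM, pyruvate kinase (GRCh37 chromosome 15, 72491370 to 72524160, minus strand), makes pyruvate and ATP in the last step. At 72 h PKM stood at 1806, 1741, 1962 and 1542 CPM in control, 853, 662, 653 and 877 in Sal, 656, 660.5, 1089 and 765 in Das and 771, 689, 692 and 634 in S+D libraries. All treated libraries lay below all control libraries, and Das replicate 3 was the highest treated library. Log2 changes came to -1.23 ± 0.16 (SE) for Sal, -1.16 ± 0.16 for Das and -1.36 ± 0.16 for S+D, at edgeR adjusted p of 3.29e-06, 4.78e-05 and 1.06e-06, and over the numbered libraries they were -1.37, -1.202 and -1.38 (adjusted p of 1.66e-05, 2.91e-04 and 1.54e-05).

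PKM fell as early as 24 h with Das and with S+D. There PKM stood at 1902, 1923, 2036 and 1697 CPM in control, 1634, 1369, 1593 and 1566 in Sal, 1146, 1108, 1201 and 1108 in Das and 684, 719, 710 and 880.4 in S+D libraries. The steps from control to Das and from Das to S+D did not overlap, and Sal stood between control and Das. Over all libraries the log2 changes at 24 h were -0.305 ± 0.088 (SE) for Sal, -0.71 ± 0.088 for Das and -1.303 ± 0.089 for S+D, at edgeR adjusted p of 0.0284, 2.91e-05 and 1.96e-08.

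ENO1, the ubiquitous enolase (GRCh37 chromosome 1, 8921059 to 8939249, minus strand), fell with every treatment. At 72 h ENO1 stood at 1845, 1892, 1955 and 2107 CPM in control, 1046, 899.8, 877 and 1417 in Sal, 916, 917, 1171 and 1522 in Das and 1201, 1020, 1018 and 1386 in S+D libraries, with no overlap of treated and control libraries. These were log2 changes of -0.897 ± 0.18 (SE) for Sal, -0.79 ± 0.18 for Das and -0.77 ± 0.18 for S+D, at edgeR adjusted p of 2.60e-04, 0.00252 and 9.51e-04, and the call with Das was lost without Das replicate 1 or replicate 2. At 24 h ENO1 stood at 1420, 1497, 1529 and 2024 CPM in control, 1293, 1125, 1285 and 2143 in Sal, 1059, 1040, 1023 and 1636 in Das and 760.3, 799.6, 781 and 1657 in S+D libraries, with no call over all libraries.

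ENO2, the neuronal enolase, was higher with S+D. At 72 h ENO2 stood at 10.6, 13.7, 13.8 and 22.7 CPM in control, 18.5, 16.8, 13.2 and 19.6 in Sal, 8.67, 7.61, 5.84 and 23.02 in Das and 32.6, 35.1, 32.05 and 52.5 in S+D libraries, and only the S+D libraries all lay above the control libraries. On the log2 scale the changes were 0.15 ± 0.34 (SE) for Sal, -0.43 ± 0.34 for Das and 1.31 ± 0.34 for S+D, at edgeR adjusted p of 0.717, 0.349 and 0.00261, and the call with S+D was lost without control replicate 1 (adjusted p = 0.0113). In the fit of numbered libraries ENO2 also fell with Das, with changes of 0.33, -0.79 and 1.37 (adjusted p of 0.0923, 0.00295 and 7.53e-06). Per kb of exon ENO2 made up 0.928% ± 0.258 (SD, n = 4) of enolase mRNA in control cells and 3.83% ± 0.513 with S+D. At 24 h ENO2 stood at 7.23, 7.95, 8.75 and 22.4 CPM in control, 6.92, 5.09, 7.14 and 29.4 in Sal, 7.07, 6.62, 5.92 and 18.1 in Das and 5.85, 6.36, 6.28 and 42.6 in S+D libraries, with no call over all libraries.

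GAPDH, the glyceraldehyde 3-phosphate dehydrogenase of the sixth step (GRCh37 chromosome 12, 6643678 to 6647540, plus strand), fell with every treatment, and 17.6% of its exon bases are shared with another annotated gene. It was the reference gene for RT-qPCR in the study and, beside β-actin, a loading control for its Western blots, which measure protein. Only its mRNA was measured here. At 72 h GAPDH stood at 3279, 3250, 3736 and 3692 CPM in control, 2333, 1940, 1801 and 2453 in Sal, 2097, 2043, 2362 and 2919 in Das and 2765, 2372, 2377 and 2464 in S+D libraries, and no treated library reached the control range. Fitted log2 changes were -0.73 ± 0.13 (SE) for Sal, -0.57 ± 0.13 for Das and -0.501 ± 0.13 for S+D, at edgeR adjusted p of 1.12e-04, 0.00303 and 0.00278. The call with Das was lost when only the groups compared were fitted, without control replicate 3, or without Das replicate 1 or 2. With S+D it was lost without control replicate 3 or the unnumbered S+D library. At 24 h GAPDH stood at 3087, 3282, 3403 and 3406 CPM in control, 3130, 2634, 3162 and 3978 in Sal, 2933, 2686, 2738 and 3261 in Das and 2119, 2132, 2075 and 3415 in S+D libraries, with no call over all libraries.

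PGK1, the first ATP-forming enzyme of the pathway, was called lower with Das (-0.62 ± 0.17 (SE), adjusted p = 0.00974), and that call was held in 1 of the 8 fits that left out 1 library. Over the numbered libraries its change with Das was -0.71 ± 0.101 (SE), adjusted p = 1.86e-04. PGAM1, phosphoglycerate mutase, was not called over all libraries. Counts on its 13 listed pseudogenes came to 9.16% of its own.

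The summed share of the 16 enzymes (9 upper, 6 lower and LDHA) gives their part of the counts, scaled with TMM factors. It was not scaled by exon length, so it is not a share of mRNA molecules. At 72 h control cells gave 1.31% ± 0.0522 of counts (SD, n = 4), Sal 1.05% ± 0.152, Das 0.826% ± 0.143 and S+D 1.03% ± 0.0767. No treated library reached the lowest control library, 1.257%. No test was run on this sum. At 24 h it was 1.14% ± 0.109 in the control and 1.135% ± 0.303 in Sal libraries, against 0.869% ± 0.130 (Das) and 0.770% ± 0.291 (S+D). The highest library at 24 h with Das (1.062%) and with S+D (1.207%) lay above the lowest control library (1.042%). Abundant enzymes such as GAPDH, PKM, ENO1 and ALDOA dominate the sum.

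**Figure D3:**
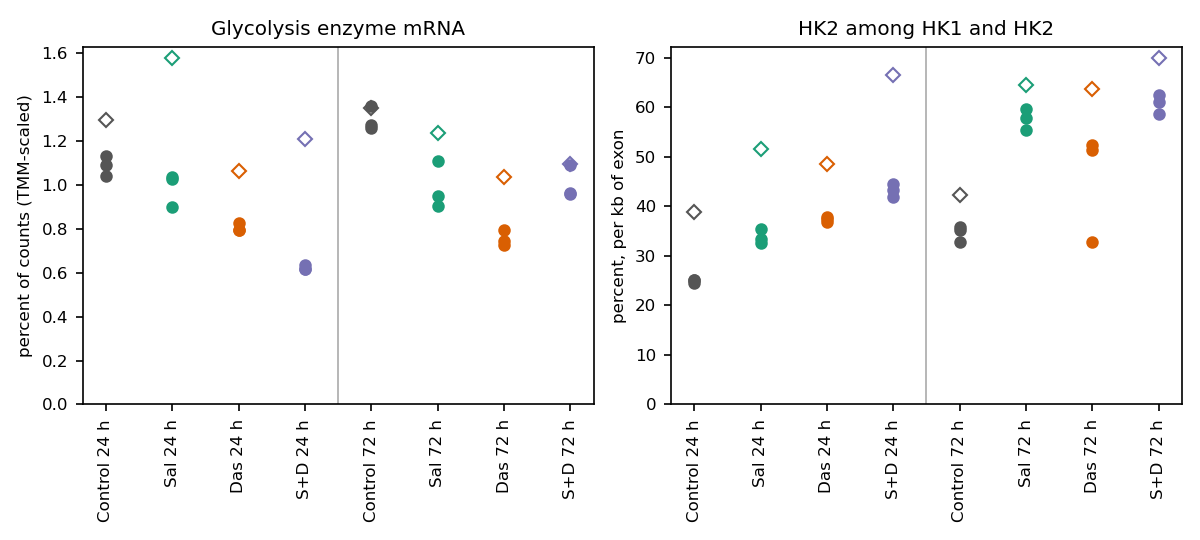
Left, percent of TMM-scaled counts in the 16 glycolysis enzymes for each library (y axis) in the 8 conditions (x axis). Right, HK2 as a percent of HK1 and HK2 per kb of exon. Filled circles are numbered and open diamonds unnumbered libraries, and HK2 moves from 36.5% in the control to 59.3% with Sal and 63.1% with S+D at 72 h.

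LDHA turns pyruvate into lactate (GRCh37 chromosome 11, 18416107 to 18429972, plus strand) and fell with all 3 treatments. At 72 h LDHA stood at 1363, 1233, 1096 and 1095 CPM in control, 466, 519, 513 and 556 in Sal, 399, 439, 550.4 and 447 in Das and 444, 346, 337 and 355 in S+D libraries. The lowest control library held 1095 CPM and the highest treated library 556. The fit gave log2 changes of -1.24 ± 0.12 (SE) for Sal, -1.39 ± 0.12 for Das and -1.71 ± 0.12 for S+D, at edgeR adjusted p of 2.50e-07, 6.20e-07 and 9.80e-09, and over the numbered libraries they were -1.32, -1.42 and -1.73 (adjusted p of 3.48e-06, 1.09e-05 and 4.23e-07). The calls were held in every alternative fit and in every fit that left out 1 library.

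LDHA was called lower at 24 h with Das and with S+D. There LDHA stood at 872, 853, 880.2 and 1063 CPM in control, 716, 824, 706 and 1027 in Sal, 452, 492, 503 and 570.1 in Das and 348, 346, 340.3 and 571 in S+D libraries. Das and S+D libraries all lay below the control libraries and Sal libraries overlapped them. The changes at 24 h were -0.18 ± 0.16 (SE) for Sal, -0.84 ± 0.16 for Das and -1.16 ± 0.16 for S+D, at edgeR adjusted p of 0.526, 0.0011 and 2.52e-05.

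SLC16A1 (MCT1, a lactate and pyruvate carrier; GRCh37 chromosome 1, 113454469 to 113500215, minus strand) changed direction with time. At 24 h SLC16A1 stood at 31.4, 28.4, 29.04 and 28.4 CPM in control, 23.5, 23.04, 22.2 and 21.5 in Sal, 25.6, 26.1, 24.3 and 22.5 in Das and 22.6, 23.1, 23.6 and 20.3 in S+D libraries, and all treated libraries lay below the control libraries. The log2 changes at 24 h were -0.39 ± 0.083 (SE) for Sal, -0.23 ± 0.083 for Das and -0.35 ± 0.083 for S+D, at edgeR adjusted p of 0.00551, 0.0532 and 0.00249, with the Sal call held in 2 of the 8 fits that left out 1 library. At 72 h SLC16A1 stood at 25.8, 26.4, 25.7 and 28.1 CPM in control, 37.2, 43.9, 45.8 and 71.7 in Sal, 20.4, 21.6, 21.2 and 21.4 in Das and 59.8, 60.5, 58.9 and 66.5 in S+D libraries. Sal and S+D libraries now lay above the control libraries, and Das libraries below them. The log2 changes at 72 h were 0.89 ± 0.15 (SE) for Sal, -0.33 ± 0.15 for Das and 1.195 ± 0.15 for S+D, at edgeR adjusted p of 5.88e-05, 0.0961 and 2.46e-06, so SLC16A1 rose with Sal and S+D while LDHA fell.

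Among the 5 genes of lactate and pyruvate fate, Sal at 72 h had 1 higher and 1 lower, Das 2 lower, and S+D 1 higher and 3 lower. By the same calls, Sal raised 26.3% and lowered 26.8% of all genes tested. Das lowered 9.36% of them, while S+D raised 27% and lowered 27.9%. The pyruvate dehydrogenase kinases PDK1 and PDK3 inhibit entry of pyruvate into the citric acid cycle. PDK1 stood at 88.5, 78.4, 73.5 and 77.9 CPM in control, 62.5, 69.2, 70.5 and 56.8 in Sal, 57.8, 52.6, 45.6 and 61.4 in Das and 51.2, 54.95, 53.5 and 50.9 in S+D libraries at 72 h, and no treated library reached the lowest control library. The changes were -0.31 ± 0.11 (SE) for Sal, -0.56 ± 0.11 for Das and -0.61 ± 0.11 for S+D, at edgeR adjusted p of 0.0169, 9.34e-04 and 8.75e-05. At 24 h PDK1 stood at 34.5, 39.01, 38.3 and 59.5 CPM in control, 51.6, 62.6, 55.9 and 73.2 in Sal, 34.7, 41.01, 34.9 and 48.5 in Das and 48.5, 43.9, 44.8 and 82.2 in S+D libraries, with no call over all libraries. For PDK3 at 72 h, PDK3 stood at 16.1, 16.2, 14.9 and 17.99 CPM in control, 12.4, 10.02, 11.6 and 12.7 in Sal, 9.79, 9.32, 13.98 and 11.1 in Das and 4.99, 10.03, 7.99 and 10.8 in S+D libraries. The log2 changes of PDK3 were -0.5 ± 0.19 (SE) for Sal, -0.57 ± 0.19 for Das and -0.96 ± 0.196 for S+D, at edgeR adjusted p of 0.0317, 0.0324 and 3.37e-04, so only S+D passed. At 24 h PDK3 stood at 13.8, 13, 13.2 and 16.1 CPM in control, 14.5, 15.04, 14.99 and 14.4 in Sal, 10.01, 9.45, 11.5 and 10.97 in Das and 9.55, 10.03, 7.899 and 15.3 in S+D libraries, and no comparison was called.

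Of the HIF factors and prolyl hydroxylases, Sal and S+D each lowered 3 of 4 and Das 1 at 72 h (26.8%, 27.9% and 9.36% of all genes lower). HIF1A, the alpha subunit of HIF-1 (GRCh37 chromosome 14, 62162231 to 62214977, plus strand), is controlled mainly at the protein level, and only its mRNA was measured here. At 72 h HIF1A stood at 334, 296, 278 and 177 CPM in control, 109, 122, 128 and 59.3 in Sal, 215, 217, 266 and 123 in Das and 98, 120.1, 122 and 73.1 in S+D libraries. Among the numbered libraries, Sal and S+D values lay far below those of the control. The log2 changes were -1.39 ± 0.26 (SE) for Sal, -0.41 ± 0.26 for Das and -1.41 ± 0.26 for S+D, at edgeR adjusted p of 1.73e-04, 0.236 and 1.46e-04, and over the numbered libraries they were -1.35, -0.38 and -1.43 (adjusted p of 1.11e-06, 0.027 and 6.25e-07). At 24 h HIF1A stood at 290.2, 271, 279 and 155 CPM in control, 277, 301, 277 and 102 in Sal, 207, 218, 244 and 112 in Das and 240.3, 224, 231 and 118 in S+D libraries, with no call over all libraries. An 11.3% part of its exon bases is shared with another annotated gene.

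EPAS1, which encodes HIF-2 alpha, fell in the same treatments. At 72 h EPAS1 stood at 227, 220.2, 240.5 and 185 CPM in control, 158, 155, 155 and 166 in Sal, 208, 215, 261 and 232 in Das and 129, 164, 171 and 159 in S+D libraries. Sal and S+D libraries lay below the control libraries and Das libraries overlapped them. Log2 changes came to -0.48 ± 0.11 (SE) for Sal, 0.064 ± 0.11 for Das and -0.503 ± 0.11 for S+D, at edgeR adjusted p of 0.00138, 0.694 and 8.40e-04. At 24 h EPAS1 stood at 244, 239.5, 247 and 177 CPM in control, 246, 221, 240.4 and 150.1 in Sal, 251, 230.2, 257 and 190 in Das and 195, 209.5, 203 and 167 in S+D libraries, with no call over all libraries.

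EGLN3 (PHD3), a prolyl hydroxylase that is itself a HIF target, was lower with all 3 treatments than in the control of the same time. In the numbered libraries of every group, EGLN3 was higher at 72 h than at 24 h, whereas in the unnumbered S+D library it was lower. At 72 h EGLN3 stood at 190.2, 203, 174 and 229.7 CPM in control, 66.8, 78.2, 69.6 and 154 in Sal, 69.9, 78.8, 88.3 and 155 in Das and 62.7, 51.7, 46.03 and 75.9 in S+D libraries, with no treated library in the control range. These were log2 changes of -1.13 ± 0.27 (SE) for Sal, -1.03 ± 0.27 for Das and -1.77 ± 0.27 for S+D, at edgeR adjusted p of 0.00134, 0.00699 and 2.18e-05. The call with Das was held in 1 of the 8 fits that left out 1 library, while over the numbered libraries the changes were -1.43, -1.27 and -1.85 (adjusted p of 8.43e-07, 1.05e-05 and 1.05e-07). At 24 h EGLN3 stood at 49.8, 60.1, 59.02 and 144 CPM in control, 50.5, 59.6, 54.1 and 150.3 in Sal, 28.4, 36.5, 30.8 and 99.6 in Das and 24.5, 27.9, 23.9 and 132 in S+D libraries, with no call over all libraries. EGLN1 (PHD2), the main oxygen sensor among them, was not called, with changes of 0.067, 0.066 and 0.089 at 72 h.

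Of 12 targets of the hypoxia response, Sal at 72 h had 4 higher and 2 lower, Das 1 lower, and S+D 5 higher and 1 lower. All genes were also called in both directions, with 26.3% higher and 26.8% lower for Sal. For Das these shares were 10.5% and 9.36%, and for S+D 27% and 27.9%. CA9, a carbonic anhydrase at the cell surface and a textbook HIF target (GRCh37 chromosome 9, 35673925 to 35681156, plus strand), was lower than in the control of the same time. At 72 h CA9 stood at 173, 184, 207 and 295 CPM in control, 57.5, 52.3, 43.04 and 91.5 in Sal, 31.6, 33.1, 34.8 and 135 in Das and 79.2, 65.3, 63.95 and 120.2 in S+D libraries. No treated library reached the lowest control library, 173 CPM. On the log2 scale the changes were -1.83 ± 0.41 (SE) for Sal, -1.88 ± 0.41 for Das and -1.403 ± 0.402 for S+D, at edgeR adjusted p of 7.73e-04, 0.00211 and 0.0053, and over the numbered libraries they were -1.91, -2.51 and -1.46 (adjusted p of 1.01e-07, 1.78e-08 and 5.28e-07). The call with Das was lost when only the groups compared were fitted, and the call with S+D was held in 3 of the 8 fits that left out 1 library. Exons of other genes cover 35.7% of the CA9 exon bases.

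At 24 h CA9 stood at 35.6, 54.2, 53.3 and 208 CPM in control, 41.2, 42.8, 41.01 and 279 in Sal, 11.8, 17.8, 10.3 and 115 in Das and 8.35, 11.5, 9.396 and 216 in S+D libraries, so CA9 in numbered libraries with Das and with S+D was at most 17.8 CPM. The unnumbered libraries stood at 115 to 279 CPM, and no change was called over all libraries. In the numbered libraries of every group, treated or control, CA9 was higher at 72 h than at 24 h. The control stood highest at 72 h. In the unnumbered Sal and S+D libraries CA9 was lower at 72 h, at 91.5 and 120.2 CPM. With the numbered libraries alone, the changes at 24 h were -0.18, -1.804 and -2.28 (adjusted p of 0.394, 7.54e-08 and 1.98e-09). CA12, another carbonic anhydrase, fell with Sal and was not called with Das or S+D. At 72 h CA12 stood at 3.95, 3.12, 3.31 and 1.104 CPM in control, 0.735, 0.896, 0.744 and 0.711 in Sal, 3.36, 2.68, 4.51 and 3.08 in Das and 3.296, 4.503, 4.44 and 4.35 in S+D libraries. The log2 changes of CA12 were -1.91 ± 0.31 (SE) for Sal, 0.25 ± 0.28 for Das and 0.52 ± 0.28 for S+D, at edgeR adjusted p of 4.08e-05, 0.531 and 0.111. At 24 h CA12 stood at 1.69, 1.21, 1.505 and 0.799 CPM in control, 1.296, 1.25, 1.33 and 0.532 in Sal, 2.28, 1.94, 2.11 and 1.13 in Das and 1.81, 1.63, 1.82 and 2.05 in S+D libraries, with no call over all libraries.

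BNIP3 and BNIP3L, mitophagy receptors that HIF induces, rose. BNIP3 (GRCh37 chromosome 10, 133781188 to 133795471, minus strand) rose with Sal (1.07 ± 0.15 (SE), adjusted p = 1.19e-05) and with S+D (1.299 ± 0.16 (SE), adjusted p = 1.44e-06), and stood at 0.16 ± 0.15 (SE), adjusted p = 0.463 with Das. At 72 h BNIP3 stood at 24.7, 22.2, 23.2 and 18.3 CPM in control, 45.3, 48.4, 48.1 and 46.4 in Sal, 29.6, 25.4, 15.8 and 28.3 in Das and 61.5, 53.04, 52.4 and 53.2 in S+D libraries, and Sal and S+D libraries lay above all control libraries. BNIP3L rose with Sal (0.73 ± 0.14 (SE), adjusted p = 1.77e-04) and with S+D (0.57 ± 0.14 (SE), adjusted p = 0.00149).

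P4HA2, a collagen prolyl hydroxylase, rose with Sal and with S+D. At 72 h P4HA2 stood at 40.7, 39.9, 43.3 and 40.9 CPM in control, 92.5, 78.7, 81.3 and 92.6 in Sal, 60.8, 56.9, 39.1 and 74.9 in Das and 131, 116, 116 and 127 in S+D libraries. Sal and S+D libraries lay above the control libraries, and Das replicate 3 lay just below them. Fitted log2 changes were 1.05 ± 0.14 (SE) for Sal, 0.48 ± 0.14 for Das and 1.56 ± 0.14 for S+D, at edgeR adjusted p of 6.61e-06, 0.0147 and 1.06e-07. Without Das replicate 3, P4HA2 was called higher with Das (log2 change 0.65, adjusted p = 1.54e-04). At 24 h P4HA2 stood at 27.04, 29.9, 28.6 and 40.3 CPM in control, 38.99, 31.6, 40.9 and 80.02 in Sal, 39.7, 42.4, 37.1 and 64.4 in Das and 43.6, 45.2, 45.6 and 94.3 in S+D libraries, with no call over all libraries. KDM3A, a histone demethylase and HIF target, rose with Sal (0.598 ± 0.12 (SE), adjusted p = 3.61e-04) and with S+D (0.53 ± 0.12 (SE), adjusted p = 9.99e-04).

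VEGFA, the main angiogenic growth factor, was higher with S+D from 24 h. At 24 h VEGFA stood at 164, 188, 185 and 242 CPM in control, 229.8, 265, 262 and 407 in Sal, 271, 305, 266 and 337 in Das and 417, 402, 427 and 653 in S+D libraries. The S+D libraries lay above all control and Das libraries, and the unnumbered Sal library lay within their range. The changes at 24 h were 0.57 ± 0.18 (SE) for Sal, 0.62 ± 0.18 for Das and 1.32 ± 0.18 for S+D, at edgeR adjusted p of 0.047, 0.021 and 2.67e-05. At 72 h VEGFA stood at 319, 370.1, 374 and 306 CPM in control, 462, 458, 425 and 466 in Sal, 519, 484, 303 and 567 in Das and 439, 506, 497 and 563 in S+D libraries, and Das replicate 3 lay just below the control libraries. The changes at 72 h were 0.39 ± 0.15 (SE) for Sal, 0.44 ± 0.15 for Das and 0.53 ± 0.15 for S+D, at edgeR adjusted p of 0.0331, 0.0305 and 0.00485. The S+D call at 72 h was held in 3 of the 8 fits that left out 1 library, and over the numbered libraries adjusted p was 0.0325. Without Das replicate 3, VEGFA was called higher with Das (log2 change 0.62, adjusted p = 2.09e-04). The other targets, ADM (adrenomedullin), ANKRD37, NDRG1, P4HA1 and ANGPTL4 (angiopoietin-like 4), were not called over all libraries at 72 h.

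ANGPTL4 shows how far the 2 sets of libraries can differ. Over all 4 libraries its changes at 72 h were -1.87 ± 0.904 (SE) for Sal, -0.81 ± 0.87 for Das and -1.36 ± 0.89 for S+D, at edgeR adjusted p of 0.0788, 0.502 and 0.185, and over the numbered libraries -3.93, -1.86 and -1.87 (adjusted p of 2.41e-08, 9.81e-06 and 1.51e-06). ADM likewise passed over the numbered libraries with Sal (-0.86 ± 0.15 (SE), adjusted p = 1.35e-04) and with Das (-1.53 ± 0.15 (SE), adjusted p = 7.41e-06), but not over all 4.

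**Figure D4:**
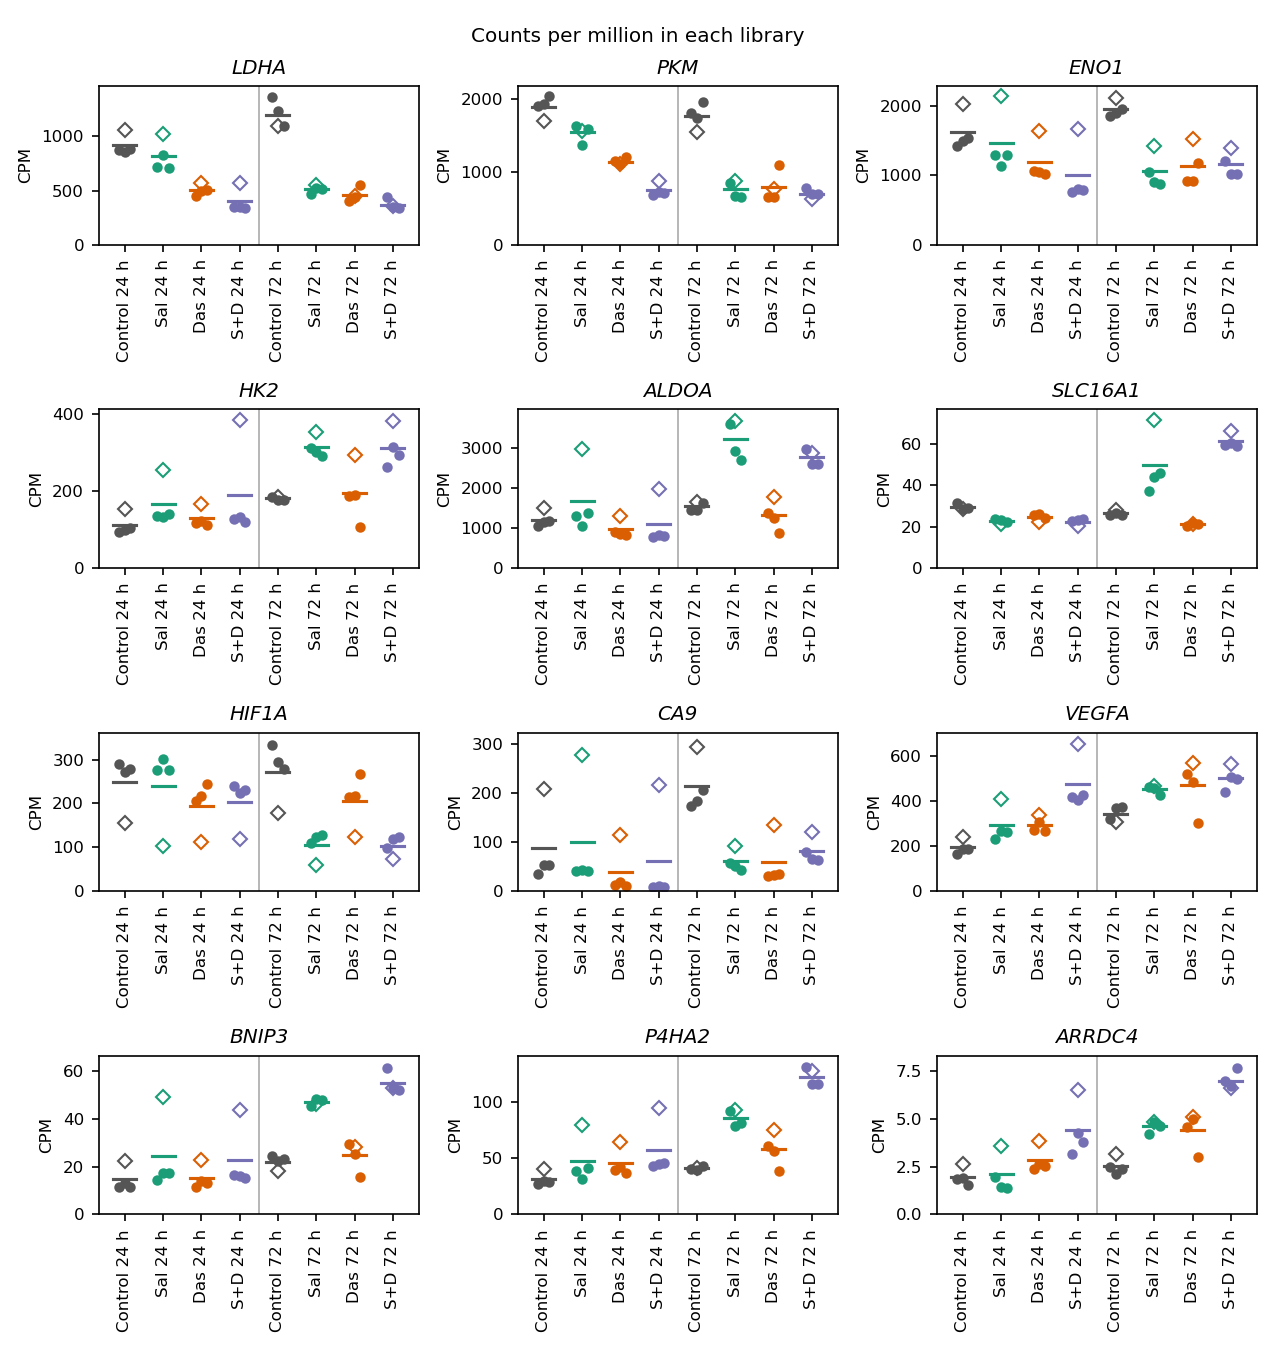
CPM in each library (y axis, linear from 0) for 12 genes in the 8 conditions (x axis, 24 h left and 72 h right of the line). Filled circles are numbered libraries, open diamonds the unnumbered library and bars the mean of 4. LDHA at 72 h falls from 1095 or more in the control to 556 or less in every treated library.

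ARRDC4, an arrestin that restrains glucose uptake and a MondoA target (GRCh37 chromosome 15, 98503933 to 98517063, plus strand), rose with every treatment at 72 h. ARRDC4 stood at 2.48, 2.12, 2.39 and 3.15 CPM in control, 4.2, 4.81, 4.61 and 4.85 in Sal, 4.57, 5.001, 3.01 and 5.09 in Das and 6.98, 6.701, 7.66 and 6.62 in S+D libraries at 72 h. Sal and S+D libraries lay above all control libraries, and Das replicate 3 lay within their range. The fit gave log2 changes of 0.85 ± 0.18 (SE) for Sal, 0.79 ± 0.18 for Das and 1.45 ± 0.18 for S+D, at edgeR adjusted p of 4.61e-04, 0.00258 and 1.81e-06. The call with Das was held in 6 of the 8 fits that left out 1 library. At 24 h ARRDC4 stood at 1.84, 1.89, 1.54 and 2.63 CPM in control, 1.97, 1.46, 1.36 and 3.58 in Sal, 2.37, 2.65, 2.53 and 3.85 in Das and 3.16, 4.25, 3.8 and 6.502 in S+D libraries, and the S+D change was called (1.19 ± 0.297 (SE), adjusted p = 0.00385) in 4 of the 8 such fits.

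The combination was set beside each drug alone. S+D against Sal at 72 h gave 1 gene higher and none lower (3.01% of all genes, 1.42% higher and 1.59% lower). That gene was CA12, with a log2 difference of 2.42 ± 0.31 (SE), adjusted p = 1.36e-04. Against Das, S+D gave 9 higher and 2 lower (32.1% of all genes, 14.3% higher and 17.7% lower), among them SLC16A1 (1.53 ± 0.15 (SE), adjusted p = 1.15e-06), ENO2 (1.74 ± 0.34 (SE), adjusted p = 5.96e-04) and BNIP3 (1.14 ± 0.15 (SE), adjusted p = 2.05e-05) higher, and HIF1A (-1.001 ± 0.26 (SE), adjusted p = 0.00454) lower, the last held in 3 of the 8 fits that left out 1 library. At 72 h the count against Das was 18 without the unnumbered Das library, and that against Sal was 2 without the unnumbered Sal library. At 24 h, S+D against Sal gave VEGFA higher and HK1, PKM and LDHA lower (12.9% of all genes, 5.83% higher and 7.06% lower), and S+D against Das gave PKM lower (8.49% of all genes, 4.03% higher and 4.46% lower). The VEGFA call was held in 2 of the 8 fits that left out 1 library, and it was lost under RLE scaling, another way to set library sizes, with 0 genes then higher. Those 24 h counts were 7 and 3 without the unnumbered S+D library.

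The interaction of the drugs asks whether S+D differed from the sum of the 2 single log2 changes. At 72 h 5 genes were called, all above 0 (7.52% of all genes, 3.43% higher and 4.09% lower). They were PFKP (1.48 ± 0.21 (SE), adjusted p = 2.66e-04), GAPDH (0.802 ± 0.18 (SE), adjusted p = 0.00721), PKM (1.03 ± 0.22 (SE), adjusted p = 0.00448), LDHA (0.92 ± 0.17 (SE), adjusted p = 0.00206) and CA12 (2.18 ± 0.42 (SE), adjusted p = 0.00228). For LDHA the single changes sum to -2.63, whereas S+D gave -1.71. For PFKP they sum to -1.74 and S+D gave -0.26. The 4 glycolysis enzymes lay higher with both drugs than the sum of their single changes. GAPDH and PKM were held in 4 and 9 of the 16 fits that left out 1 library. The count was 3 without control replicate 1 or 3, Sal replicate 2 or 3, Das replicate 1 or 2, or S+D replicate 1, 8 without the unnumbered Sal library and 11 without the unnumbered Das library. In the fit of numbered libraries 17 genes were called, all above 0 (12.9% of all genes). At 24 h none was called (0.0306% of all genes, all lower), with 2 at an unadjusted p under 0.05, none called by DESeq2 and 2, HK2 and PKM, over the numbered libraries (5.09% of all genes).

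**Figure D5:**
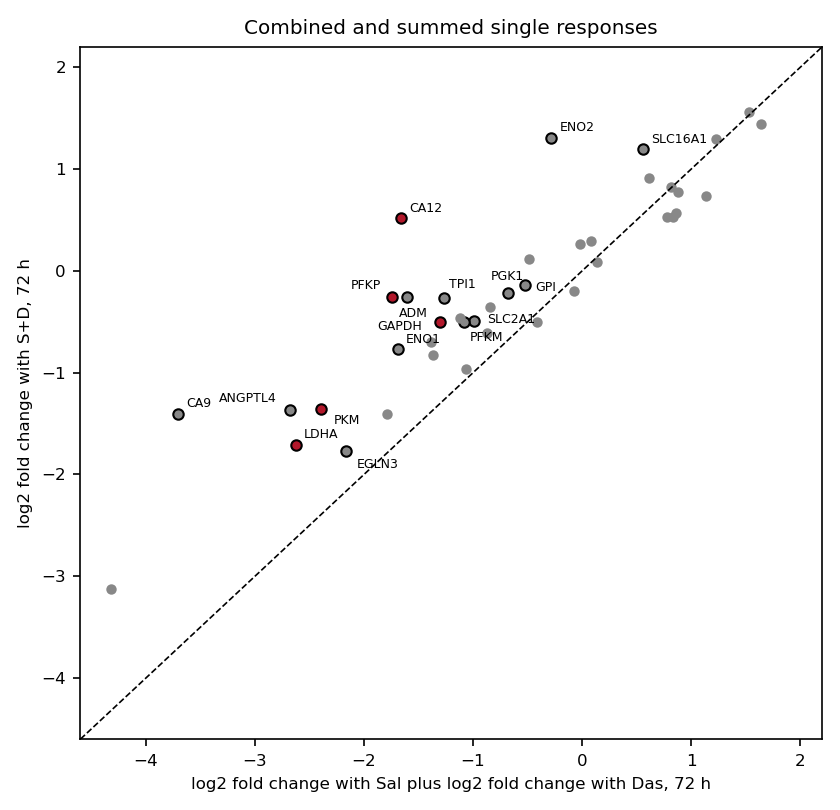
Log2 change with S+D at 72 h (y axis) against the sum of the log2 changes with Sal and with Das (x axis), 1 point per gene and the dashed line where both are equal. Red points are genes called for the interaction over all libraries and black rims genes called over the numbered libraries, all above the line, with LDHA at -1.71 for a sum of -2.63.

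The control cells were also compared over time in culture. Control libraries at 72 h against 24 h gave 2 genes higher and none lower (2.76% of all genes, 2% higher and 0.76% lower), PDK1 (0.89 ± 0.17 (SE), adjusted p = 0.00156) and VEGFA (0.81 ± 0.17 (SE), adjusted p = 0.00441). The count was 0 without control 24 h replicate 1 and 1 without control 24 h replicate 2 or 3 or control 72 h replicate 1, 2 or 3. Over the numbered libraries 27 of 41 were higher and none lower (11% of all genes). These 27 include all 12 hypoxia response targets, with log2 changes of 1.98 for CA9, 2.24 for NDRG1, 2.15 for ANKRD37 and 1.75 for the hydroxylase EGLN3.

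Set against its own 24 h values, the Sal response at 72 h had changed for 5 genes (21.9% of all genes, 8.21% higher and 13.7% lower): SLC16A1 (1.28 ± 0.17 (SE), adjusted p = 2.21e-06) upward, and LDHA (-1.06 ± 0.21 (SE), adjusted p = 2.46e-04), PKM (-0.92 ± 0.18 (SE), adjusted p = 2.87e-04), GAPDH (-0.68 ± 0.201 (SE), adjusted p = 0.00951) and CA12 (-1.65 ± 0.44 (SE), adjusted p = 0.00426) downward. GAPDH was held in 3 and CA12 in 12 of the 16 fits that left out 1 library. The count was 3 without Sal 24 h replicate 3 or control 72 h replicate 1. For S+D, the response at 72 h minus that at 24 h was above 0 for SLC16A1 (1.6 ± 0.17 (SE), adjusted p = 1.76e-07) and below 0 for PDK1 (-0.95 ± 0.24 (SE), adjusted p = 0.00386), 2 genes of 41 (16.3% of all genes, 6.15% higher and 10.1% lower), with 1 called without control 24 h replicate 3 and 4 without the unnumbered S+D 24 h library. The response to Das gave none (0.226% of all genes, 0.0522% higher and 0.174% lower), with 3 at an unadjusted p under 0.05, none by DESeq2 and 7 lower over the numbered libraries (3.56% of all genes).

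The rest of the pathways was taken from lists of related genes. Of 35 other glycolysis genes, 29 were tested at 72 h, Sal having 12 higher and 5 lower (58.6%, beside 53.2% of all genes), Das 4 and 4 (27.6% beside 19.9%), and S+D 11 and 6 (58.6% beside 54.9%). Mitochondrial pyruvate carrier 1 (MPC1), which admits pyruvate to mitochondria, stood at 26.1 ± 1.83 CPM in control (mean ± SD, n = 4), 237 ± 14.4 in Sal, 96.8 ± 45.2 in Das and 235 ± 45.6 in S+D libraries. It rose with Sal (3.17 ± 0.27 (SE), adjusted p = 5.60e-08), Das (1.89 ± 0.26 (SE), adjusted p = 4.82e-05) and S+D (3.15 ± 0.27 (SE), adjusted p = 4.29e-08). PGAM2, the muscle mutase, rose with Sal (4.33 ± 0.53 (SE), adjusted p = 1.82e-06) and HKDC1, a hexokinase-like enzyme, with S+D (3.09 ± 0.404 (SE), adjusted p = 3.65e-06), both rare in the control, at 0.0809 and 0.509 CPM.

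Of 35 other hypoxia genes, Sal at 72 h had 15 higher and 7 lower (62.9%, beside 53.2% of all genes), Das 6 and 5 (31.4% beside 19.9%), and S+D 14 and 10 (68.6% beside 54.9%). LOX, the lysyl oxidase that crosslinks collagen and a HIF target, rose with Sal (3.55 ± 0.38 (SE), adjusted p = 4.35e-07) and with S+D (3.12 ± 0.37 (SE), adjusted p = 1.20e-06). STC2, stanniocalcin 2, rose with S+D (1.89 ± 0.19 (SE), adjusted p = 2.21e-07). Of the Mondo and Mlx factors, which drive ARRDC4, MLXIP rose with Sal (0.598 ± 0.14 (SE), adjusted p = 0.00149) and with S+D (0.58 ± 0.14 (SE), adjusted p = 0.0019), MLXIPL rose with Das (1.19 ± 0.29 (SE), adjusted p = 0.00489) and with S+D (1.79 ± 0.29 (SE), adjusted p = 4.09e-05), and MLX fell with S+D (-0.45 ± 0.105 (SE), adjusted p = 0.00112).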

How the data were processed

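RNA was sequenced from MDA-MB-468 cells in 32 libraries, 4 in each of 8 conditions. The authors deposited whole-number read counts per gene, not normalized, for 48804 Ensembl genes. Per the labels and the study's methods, libraries were made with a TruSeq RNA kit and sequenced single-end on a HiSeq4000, base calls were converted with bcl2fastq 2.19, and reads were aligned with STAR 2.5.2 to GRCh37. FPKM values from Cufflinks 2.1.1 were not used here. The counting program, its annotation and its use of strand are not given in the sources used here, so reads of genes whose exons overlap cannot be told apart. Per the study's methods the drug stocks were dissolved in DMSO, present at a low final level, and the control was PBS. Identifiers matched a symbol for 46537 genes.

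Counts were tested with edgeR 4.0.16 in R 4.3.3 (quasi-likelihood test, TMM scaling, filterByExpr with a minimum count of 10), in 1 fit of 16 libraries per time point (16357 genes at 24 h, 16682 at 72 h) and in 1 fit of 32 libraries for changes with time (17227 genes). P-values were adjusted by the Benjamini-Hochberg method over all genes of a fit, and a gene was called at an adjusted p under 0.01, the cutoff of the study's methods. DESeq2 1.42.0, RLE scaling, no filter, the study's added cutoff of 1.5 on the absolute log2 change, fits of only the groups compared, of the numbered libraries, with a replicate block and without each library in turn were alternatives. Counting error is small for abundant genes but not for rare ones such as SLC2A3 (5 to 253 counts per library) and ALDOC (3 to 53). Tested on simulated data for Sal against control at 72 h (16682 genes), edgeR called 192 of 200 genes changed by 1.5 on the log2 scale and 3 unchanged genes. The changed genes were taken only from those above a set mean count. Libraries were simulated independently, without the shared deviation of the unnumbered libraries. Rare genes, smaller changes and that deviation were therefore not tested in this way.

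The 42 genes and all lists were chosen with earlier results of these data known. Values of every library are given for SLC2A1, HK2, GAPDH, LDHA, PDK1, HIF1A, VEGFA, CA9 and ARRDC4 and for up to 3 genes of each role list with the largest called log2 change against control at 72 h, and BNIP3 is added because its promoter is shown. Of other pathway lists, up to 3 called genes with the largest change are named, except a gene that is not reported here. The labels of the same replicate number give no litter, day or batch. Promoters came from RefSeq.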

Additional observations from a re-analysis of the deposited data

Results flagged for a closer look

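In 184 groups of 4 libraries (23 genes, 8 conditions), 53 had a highest or lowest library farther from the others than Dixon's 95% limit, where chance gives about 1 in 20. In 52 of the 53 it was the library without a replicate number. The other was CA12 with S+D at 72 h, where replicate 1 held 3.30 CPM and the others 4.35 to 4.50. In CPM, the unnumbered library stood above the rest for SLC2A1 at 325 (Control 24 h), 404 (Sal 24 h), 299.7 (Das 24 h), 434 (S+D 24 h), 353 (Sal 72 h) and 304 (Das 72 h), SLC2A3 at 2.61 (Control 24 h), 1.57 (Sal 24 h), 1.06 (Das 24 h) and 1.02 (S+D 24 h), HK2 at 152 (Control 24 h), 254 (Sal 24 h) and 382 (S+D 24 h) and PFKP at 224 (S+D 24 h) and 198 (Das 72 h). It also stood above the rest for ALDOA at 2990 (Sal 24 h), 1303 (Das 24 h) and 1984 (S+D 24 h), PFKFB3 at 102 (Sal 24 h), 91.3 (S+D 24 h) and 109 (Sal 72 h), GAPDH at 3415 (S+D 24 h) and ENO1 at 2143 (Sal 24 h), 1636 (Das 24 h) and 1657 (S+D 24 h). It also stood above the rest for ENO2 at 22.4 (Control 24 h), 29.4 (Sal 24 h), 18.1 (Das 24 h), 42.6 (S+D 24 h), 23.02 (Das 72 h) and 52.5 (S+D 72 h), LDHA at 1063 (Control 24 h) and 571 (S+D 24 h), PDK1 at 82.2 (S+D 24 h) and EGLN3 at 144 (Control 24 h), 150.3 (Sal 24 h), 99.6 (Das 24 h), 132 (S+D 24 h) and 154 (Sal 72 h). It also stood above the rest for VEGFA at 653 (S+D 24 h), CA9 at 208 (Control 24 h), 279 (Sal 24 h), 115 (Das 24 h), 216 (S+D 24 h) and 135 (Das 72 h) and P4HA2 at 94.3 (S+D 24 h). In CPM, the unnumbered library stood below the rest for HK1 at 190.3 (S+D 72 h), HIF1A at 155 (Control 24 h), 102 (Sal 24 h) and 118 (S+D 24 h), EPAS1 at 177 (Control 24 h) and CA12 at 0.532 (Sal 24 h). Their part in the results was not tested as a cause. 

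Responses that differed between groups were called by edgeR at 12 points, each on the log2 scale. The interaction of Sal and Das at 72 h was 1.48 for PFKP, 0.80 for GAPDH, 1.03 for PKM, 0.92 for LDHA and 2.18 for CA12. The response to Sal at 72 h minus that at 24 h was -0.68 for GAPDH, -0.92 for PKM, -1.06 for LDHA, 1.28 for SLC16A1 and -1.65 for CA12. For S+D it was 1.60 for SLC16A1 and -0.95 for PDK1.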

How the results depend on the processing

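Of 1035 values of log2 change at 72 h under an alternative (69 changes of 23 genes), 956 kept their direction and side of the threshold, 44 lost the call, 30 gained it and 5 changed sign. Under RLE scaling the number of genes called in each comparison kept within 1.5 times, but VEGFA, the 1 gene higher with S+D against Sal at 24 h, was no longer called, which left 0 higher and 3 lower. The cause of the moves below was not tested. With the added cutoff of 1.5 on the absolute log2 change, the number of the 41 genes called was 0 for Sal at 24 h, 0 for Das at 24 h, 0 for S+D at 24 h, 0 for S+D against Sal at 24 h, 0 for S+D against Das at 24 h, 3 for Sal at 72 h, 2 for Das at 72 h, 4 for S+D at 72 h, 2 for S+D against Das at 72 h, 1 for the interaction at 72 h, 0 for control over time, 1 for Sal response over time and 1 for S+D response over time. Without the filter on low counts it was 0 for Sal at 24 h, 3 for S+D against Sal at 72 h and 8 for the interaction at 72 h. DESeq2 called 2 for Sal at 24 h, 3 for S+D against Das at 24 h, 6 for S+D against Sal at 72 h and 8 for the interaction at 72 h. Fitting only the groups compared gave 0 for Sal at 24 h, 5 for Das at 24 h, 4 for S+D against Sal at 72 h and 7 for control over time. The numbered libraries alone gave 18 for Sal at 24 h, 22 for Das at 24 h, 35 for S+D at 24 h, 26 for S+D against Sal at 24 h, 22 for S+D against Das at 24 h, 2 for the interaction at 24 h, 26 for Das at 72 h, 5 for S+D against Sal at 72 h, 20 for S+D against Das at 72 h, 17 for the interaction at 72 h, 27 for control over time, 21 for Sal response over time, 7 for Das response over time and 16 for S+D response over time. The called share of all genes was also larger over the numbered libraries. At 24 h it went from 12.9% to 41.4% for S+D against Sal and from 8.49% to 32.9% for S+D against Das. At 72 h these shares went from 3.01% to 4.31% and from 32.1% to 36.6%. For the Sal response over time it went from 21.9% to 39.3%, and for S+D from 16.3% to 31.5%. For the other alternative fits, those without 1 library or with a block included, it was not computed. A term for unnumbered against numbered libraries, chosen after seeing the data, gave 14 for Sal at 24 h, 20 for Das at 24 h, 28 for S+D at 24 h, 19 for S+D against Sal at 24 h, 14 for S+D against Das at 24 h, 23 for Das at 72 h, 6 for S+D against Sal at 72 h, 18 for S+D against Das at 72 h, 17 for the interaction at 72 h, 17 for control over time, 12 for Sal response over time and 10 for S+D response over time. Leaving out 1 library at a time, the lowest and highest counts were 0 to 1 for Sal at 24 h, 3 to 3 for Das at 24 h, 5 to 11 for S+D at 24 h, 3 to 7 for S+D against Sal at 24 h, 1 to 3 for S+D against Das at 24 h, 0 to 0 for the interaction at 24 h, 21 to 24 for Sal at 72 h, 8 to 23 for Das at 72 h, 20 to 22 for S+D at 72 h, 1 to 2 for S+D against Sal at 72 h, 8 to 18 for S+D against Das at 72 h, 3 to 11 for the interaction at 72 h, 0 to 3 for control over time, 3 to 6 for Sal response over time, 0 to 0 for Das response over time and 1 to 4 for S+D response over time. HK2 with Das at 72 h changed sign over the numbered libraries (-0.15) and without the unnumbered Das library (-0.15), EPAS1 over the numbered libraries (-0.014) and without the unnumbered control library (-0.0089), and CA12 without the unnumbered control library (-0.028). Leaving out 1 library, these changes ran from -0.15 to 0.32 for HK2, -0.0089 to 0.12 for EPAS1 and -0.028 to 0.43 for CA12. None of these was called in these fits.

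No pairing by replicate number was seen among the numbered libraries. After group means were removed, the median correlation of same-number pairs was -0.0219 at 24 h and 0.015 at 72 h. Of 18 such pairs, 3 and 2 were over 0.1, while pairs of different numbers reached 0.217 and 0.528. With 3 numbered libraries per group, this check cannot show that no pairing exists. The unnumbered libraries of different conditions did deviate together (r of 0.667 to 0.743 at 24 h and 0.605 to 0.699 at 72 h). With the replicate number as a block, the library without a number counted as a level of its own, the counts were 11 for Sal at 24 h, 15 for Das at 24 h, 28 for S+D at 24 h, 18 for S+D against Sal at 24 h, 13 for S+D against Das at 24 h, 23 for Das at 72 h, 4 for S+D against Sal at 72 h, 18 for S+D against Das at 72 h, 18 for the interaction at 72 h, 16 for control over time, 12 for Sal response over time and 7 for S+D response over time.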
